A study of Homo sapiens with 6 samples.

Results

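TNF, 7 related ligands and the 2 receptors of TNF were followed by RNA sequencing in macrophage-like THP-1 cells in which the circular RNA hsa_circ_0004287 had been targeted. The members were the rows of the deposited gene table whose symbol is TNF, LTA, LTB, TNFSF8, TNFSF9, TNFSF10, TNFSF14, TNFSF15, TNFRSF1A or TNFRSF1B, 10 of the 19976 genes listed. THP-1 is a human monocytic leukaemia line, and 3 libraries came from cells given 200 nM of siRNA to hsa_circ_0004287 for 48 h (circ siRNA) and 3 from cells given 200 nM of control siRNA, labelled NC, for 48 h. All cells had first been differentiated with the phorbol ester PMA at 50 ng/ml for 48 h, and were then stimulated after the siRNA with the TLR4 agonist lipopolysaccharide (LPS) at 200 ng/ml for 3 h, so every level below is that of LPS-activated cells of 1 cell line. The labels do not say whether the 3 libraries of a group came from separate cultures, and p-values then measure only the spread between these libraries. The level of the circular RNA itself was not analysed here.

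TNF is made by macrophages as a membrane-bound trimer, from which the protease ADAM17 releases the soluble cytokine. Its receptor TNFRSF1A (TNFR1) is broadly expressed and carries a death domain that recruits TRADD and RIPK1, whereas TNFRSF1B (TNFR2) is found mainly on leukocytes and endothelial cells and recruits TRAF2 directly. The related ligands bind receptors of their own: LTA shares the receptors of TNF, LTB forms a membrane complex with LTA that binds LTBR, TNFSF14 (LIGHT) binds LTBR and TNFRSF14, TNFSF10 (TRAIL) binds death and decoy receptors of the TNFRSF10 group, TNFSF9 (4-1BB ligand) binds TNFRSF9, TNFSF8 (CD30 ligand) binds TNFRSF8, and TNFSF15 (TL1A) binds TNFRSF25.

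Library totals ran from 14793902 to 16736972 counts, and 12469 genes passed the filter on low counts. The first principal component, with 53.4% of the variance, did not follow the groups: circ library 3 and control library 1 had scores of -38.4 and -23.2, and the other 4 libraries lay between -1.51 and 30.4. On the second component, with 16.9% of the variance, the groups did not overlap. Scores there were 18.5, 18.7 and -2.38 in circ libraries 1 to 3 and -13.2, -13.6 and -7.92 in control libraries 1 to 3. Because of the first component, results are also given without circ library 3 and control library 1. They were chosen from the same counts that are tested, and leaving them out narrows the spread within groups. P-values and calls of that fit are therefore too favourable and are given as a description only. Macrophage marker genes summed to 2471 to 3624 CPM (counts scaled to a common library size, here the deposited totals) in circ libraries and to 3051 to 3587 CPM in control libraries. CD68 was near 0 (at most 0.338 CPM) and LYZ between 4.18 and 6.21 CPM, and 85.8% and 34.0% of their exon bases are shared with other genes in GENCODE 29. Marker sums in circ libraries were 1.91 to 3.01 CPM for B cells, 41.3 to 53.0 CPM for neutrophils, 0 to 0.12 CPM for epithelial cells, 11.8 to 17.2 CPM for fibroblasts and 297 to 388 CPM for endothelial cells. In control libraries they were 2.96 to 3.32 CPM, 34.6 to 40.6 CPM, 0.0603 to 0.315 CPM, 13.96 to 19.2 CPM and 294 to 364 CPM for the same cell types in the same order. The T and NK cell list summed to 186 to 607 CPM in circ libraries and 143 to 241 CPM in control libraries, nearly all of it from IL7R (182 to 603 CPM in circ and 136 to 238 CPM in control libraries). NKG7 and GNLY had 1.21 to 3.38 CPM in the 6 libraries, CD3D and CD3E at most 0.299 CPM, and CD2 and CD3G no count. The part of these markers in the results below was not tested.

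The 250 bases before the annotated start of 5 ligand genes are shown because the results turn on them. TNF lies between LTA and LTB on chromosome 6 and far above both in level, TNFSF14 had the fold change farthest from 0, and TNFSF15 had the largest gap among tested members between 1 circ library and the other 2. The sequences come from RefSeq on GRCh38.p14, 5′ to 3′ on the strand of the gene, and of several windows listed for LTA, LTB and TNFSF14 the one nearest the deposited gene start was taken. Capitals mark exact matches on either strand to the NF-kB consensus (GGGRNWYYCC), AP-1 (TGANTCA), CRE (TGACGTCA), the PU.1 core (GAGGAA) or the TATA box (TATAAA). R stands for A or G, W for A or T, Y for C or T and N for any base. The RefSeq starts of LTA, LTB, TNFSF14 and TNFSF15 lie inside the deposited spans of these genes, that of TNFSF15 farthest in. For TNFSF15 this start is chr9:114792530, whereas the deposited minus-strand gene begins at 114806039. Its window thus lies within the deposited gene and not before the deposited start.
TNF, chr6:31575315-31575564, plus strand: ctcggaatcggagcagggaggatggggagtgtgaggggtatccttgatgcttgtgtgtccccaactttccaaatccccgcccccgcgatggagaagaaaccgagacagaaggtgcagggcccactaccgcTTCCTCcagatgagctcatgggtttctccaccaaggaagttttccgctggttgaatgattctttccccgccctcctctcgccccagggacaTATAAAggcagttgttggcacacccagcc
LTA, chr6:31571849-31572098, plus strand: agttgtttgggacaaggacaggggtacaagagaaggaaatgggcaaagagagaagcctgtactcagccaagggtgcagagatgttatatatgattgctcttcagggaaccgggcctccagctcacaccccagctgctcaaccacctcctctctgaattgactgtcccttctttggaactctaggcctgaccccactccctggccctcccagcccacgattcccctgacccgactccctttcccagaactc
LTB, chr6:31582426-31582675, minus strand: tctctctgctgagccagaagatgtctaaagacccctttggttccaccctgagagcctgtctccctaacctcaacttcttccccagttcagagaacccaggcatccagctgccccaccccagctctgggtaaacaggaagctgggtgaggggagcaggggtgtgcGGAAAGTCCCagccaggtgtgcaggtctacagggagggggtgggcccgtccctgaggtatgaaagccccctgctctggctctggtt
TNFSF14, chr19:6670161-6670410, minus strand: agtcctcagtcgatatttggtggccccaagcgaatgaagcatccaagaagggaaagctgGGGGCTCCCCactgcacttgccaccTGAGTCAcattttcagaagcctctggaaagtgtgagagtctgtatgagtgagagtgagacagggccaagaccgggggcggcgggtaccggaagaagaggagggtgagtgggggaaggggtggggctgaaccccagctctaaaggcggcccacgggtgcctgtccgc
TNFSF15, chr9:114792531-114792780, minus strand: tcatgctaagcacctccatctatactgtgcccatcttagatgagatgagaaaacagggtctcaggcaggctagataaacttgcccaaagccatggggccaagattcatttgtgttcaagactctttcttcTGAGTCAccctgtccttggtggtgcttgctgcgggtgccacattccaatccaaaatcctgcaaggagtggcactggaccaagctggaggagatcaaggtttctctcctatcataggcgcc
TNF has a PU.1 core that begins 120 bases and a TATA box that begins 29 bases before the start. LTA has no match in this window. LTB has 1 NF-kB match, TNFSF14 an NF-kB and an AP-1 match, and TNFSF15 an AP-1 match. Of 35116 windows of the same length, 5.21% hold the NF-kB consensus, 6.57% the AP-1, 1.65% the CRE, 23.6% the PU.1 and 10.7% the TATA word. A match describes these letters only. Sites that differ from a word are missed, so the lack of a match, as for NF-kB and CRE in TNF, does not show that a promoter lacks such sites. Promoter windows were found for 9 of the 10 members, all but TNFSF8.

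TNF stood far above the other members in both groups. Levels between genes are compared as the authors' FPKM (counts scaled by gene length and by library total). TNF had 1350 ± 160 FPKM in circ libraries and 1562 ± 9.47 FPKM in control libraries (SD, n = 3 each), which ranked it 24th and 21st of 19976 genes, and it took 0.21% to 0.264% of all counts. TNFRSF1B came next, with 142 ± 21.98 FPKM in circ libraries and 144 ± 7.03 FPKM in control libraries. TNFSF9 followed with 63.1 ± 4.99 FPKM in circ libraries and 56.2 ± 4.72 FPKM in control libraries, TNFSF10 with 29.4 ± 3.77 FPKM in circ and 29.3 ± 0.80 FPKM in control libraries, and TNFRSF1A with 13.6 ± 0.56 FPKM in circ and 15.6 ± 1.66 FPKM in control libraries. The ranges over the 6 libraries did not overlap between any of these neighbours in the order, nor between TNFRSF1A and TNFSF15. In circ libraries TNFSF15 had 7.68 ± 3.73, LTB 5.12 ± 0.91 and LTA 5.22 ± 0.35 FPKM, and in control libraries they had 6.597 ± 1.73, 6.96 ± 1.47 and 4.37 ± 0.45 FPKM in the same order of genes. LTB overlapped with both TNFSF15 and LTA. TNFSF14 had 1.99 ± 0.26 FPKM in circ and 2.81 ± 0.70 FPKM in control libraries, and TNFSF8 came last with 0.136 ± 0.164 FPKM in circ and 0.0424 ± 0.0204 FPKM in control libraries.

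**Figure D1:**
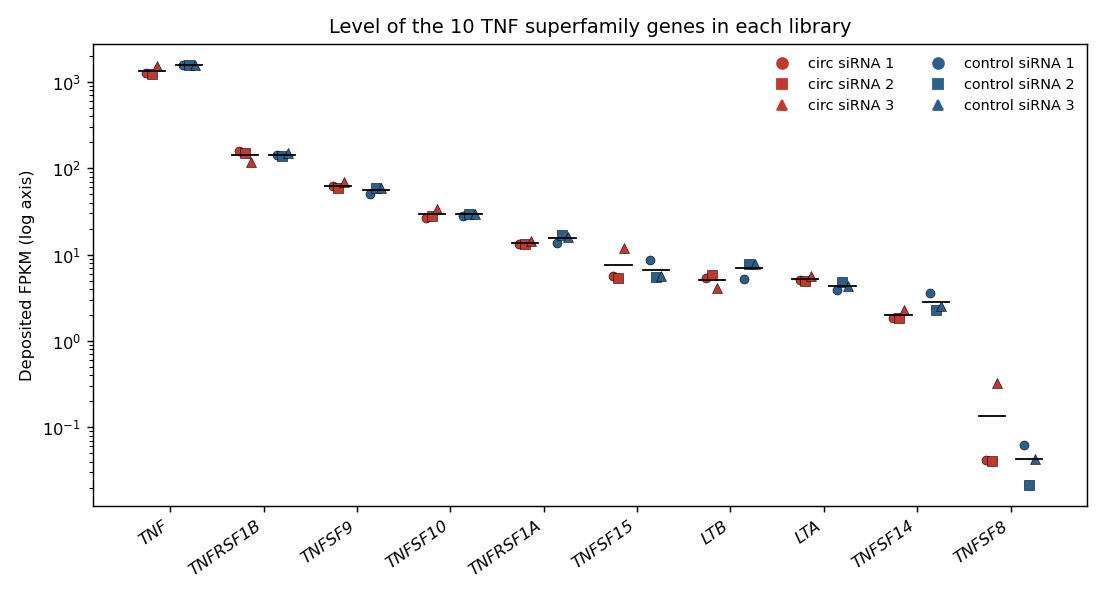
Deposited FPKM of each member in each library on a log axis, circ siRNA (red, left) and control siRNA (blue, right), with a bar at the group mean and genes ordered by their mean over all libraries. TNF lies between 1253 and 1573 FPKM in the 6 libraries and TNFRSF1B between 117 and 159 FPKM, and TNFSF8 exceeds 0.1 FPKM in circ library 3 alone.

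No member passed the threshold in the comparison of circ siRNA with control siRNA over all 6 libraries. By the quasi-likelihood test of edgeR at a Benjamini-Hochberg adjusted p under 0.05 over all tested genes, 0 of 9 tested members were called, as were 0.00802% of all genes. DESeq2 called 0 members and 0.671% of genes, limma-voom 0 members and 0 genes, and edgeR with an offset for gene length 0 members and 0.0481% of genes (0.0401% lower). At an edgeR unadjusted p under 0.05 there was 1 member, TNFSF14, which was lower, against 6.45% of all genes (3.77% higher and 2.68% lower). The median log2 fold change of the 9 members was -0.04, against -0.01 over all genes tested, with 3 positive and 6 negative values (4 and 5 with the length offset). Without the libraries that stand apart, the members' median was -0.15 and that of all genes -0.0015. Fold changes are circ siRNA over control siRNA throughout, with CPM on library sizes scaled by TMM. In bulk libraries, fewer expressing cells and less RNA per cell cannot be told apart.

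TNF (ENSG00000232810, chr6:31575565-31578336, GRCh38, plus strand) was lower in each circ library than in any control library, by a small margin. It had 2121, 2158 and 2442 CPM in circ libraries 1 to 3, against 2486, 2771 and 2685 CPM in control libraries 1 to 3. The groups did not overlap, with circ library 3 just under control library 1, the pair that the first principal component sets apart. Groups did not overlap, with circ libraries lower, for 2 of the 9 members, TNF and TNFSF14, and for 5.87% of all tested genes. With circ libraries higher, this held for 0 members and 6.64% of genes. For TNF the log2 fold change amounted to -0.24, with an SE of 0.13 and a 95% interval from -0.53 to 0.05 (edgeR adjusted p = 0.837). Leaving out the 2 libraries that stand apart gave -0.35, which passed the threshold (edgeR adjusted p = 0.0086), in a fit of 2 libraries a group that called 14.8% of all genes. The length offset gave -0.13 (edgeR adjusted p = 0.855).

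LTA and LTB, the lymphotoxin genes that flank TNF, did not show the same direction. LTA (chr6:31572054-31574324, plus strand) ends 1.24 kb before TNF begins, and LTB (chr6:31580525-31582522, minus strand) lies 2.19 kb beyond its end. LTA had 8.92, 8.77 and 9.23 CPM in circ libraries and 6.48, 8.80 and 7.77 CPM in control libraries. The groups overlapped by a narrow margin, as control library 2 lay between circ libraries 1 and 2, and LTA had a log2 fold change of 0.23, not past the threshold (95% interval -0.16 to 0.61; edgeR adjusted p = 0.882). It was 0.10 without the libraries that stand apart, 0.12 without control library 1 alone and 0.34 with the length offset. On the FPKM scale its circ libraries (4.92 to 5.60 FPKM) all lay above its control libraries (3.92 to 4.83 FPKM). LTB had 8.32, 9.20 and 5.96 CPM in circ libraries and 7.69, 12.5 and 12.4 CPM in control libraries. In each group the lowest library was the one that stands apart, and the groups overlapped. Its log2 fold change was -0.47 (95% interval -1.03 to 0.09; edgeR adjusted p = 0.836), and -0.50 without these libraries (edgeR adjusted p = 0.034). Leaving out circ library 3 alone gave -0.31 for LTB. Both lymphotoxins are typical of lymphocytes. The part of the T, NK and B cell markers, whose levels are given above, was not tested. Within 100 kb of TNF, 18 of 21 listed genes were tested, with 6 positive and 12 negative log2 fold changes between -0.47 and 0.50 and 0 called by edgeR (lowest adjusted p = 0.836). TNF was the 1 gene of these 18 whose groups did not overlap, where 12.5% of all tested genes did not overlap in either direction.

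TNFSF14 had the fold change farthest from 0 among the members. This gene (chr19:6661253-6670588, minus strand) encodes LIGHT, a costimulatory ligand of T cells, and had 8.86, 8.96 and 10.4 CPM in circ libraries against 16.4, 11.6 and 12.3 CPM in control libraries. Every circ library was under every control library, and control library 1 was the highest. TNFSF14 thus had a log2 fold change of -0.52, with an SE of 0.18 and an interval from -0.93 to -0.10 at 95%, which did not pass in edgeR (adjusted p = 0.643) or DESeq2 (adjusted p = 0.482). In the remaining 4 libraries after leaving out those that stand apart, it was -0.42 (edgeR adjusted p = 0.068), and without control library 1 alone -0.34.

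TNFSF15, TNFSF9, TNFSF10 and TNFSF8 overlapped between the groups. TNFSF15 (chr9:114784652-114806039, minus strand), whose product TL1A is induced in monocytes and macrophages, had 44.2, 42.9 and 88.4 CPM in circ libraries and 63.7, 45.4 and 45.1 CPM in control libraries. Circ library 3 and control library 1 were the high ones, at 1.02 and 0.49 log2 units above the other 2 libraries of their groups, where the median size of this shift over all tested genes was 0.29 and 0.34. Its log2 fold change was 0.19 (95% interval -0.48 to 0.85; edgeR adjusted p = 0.916), but -0.05 without both of these libraries and -0.24 without circ library 3 alone. TNFSF9 (chr19:6531026-6535924, plus strand) had 101, 99.2 and 106 CPM in circ libraries and 78.9, 102 and 98.1 CPM in control libraries. It differed mainly by a low value in control library 1, and its log2 fold change was 0.14, in an interval from -0.16 to 0.43 at 95% (edgeR adjusted p = 0.886), and 0.0034 without the libraries that stand apart. TNFSF10 (chr3:172505508-172523475, minus strand), the apoptosis-inducing ligand TRAIL, had 90.6, 99.9 and 110 CPM in circ libraries and 92.9, 108 and 105 CPM in control libraries, and its log2 fold change, -0.03, had a 95% interval from -0.31 to 0.26 (edgeR adjusted p = 0.971) and turned positive with library totals alone (0.0054) and with the length offset (0.013). It was -0.15 without the libraries that stand apart. TNFSF8 (chr9:114893343-114930595, minus strand) did not pass the filter and was not tested, with 2, 2 and 14 counts in circ libraries and 3, 1 and 2 counts in control libraries. Only circ library 3 was above the floor of 3 counts, which is 0.179 to 0.203 CPM of the deposited totals. Floors cover counting error only.

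**Figure D2:**
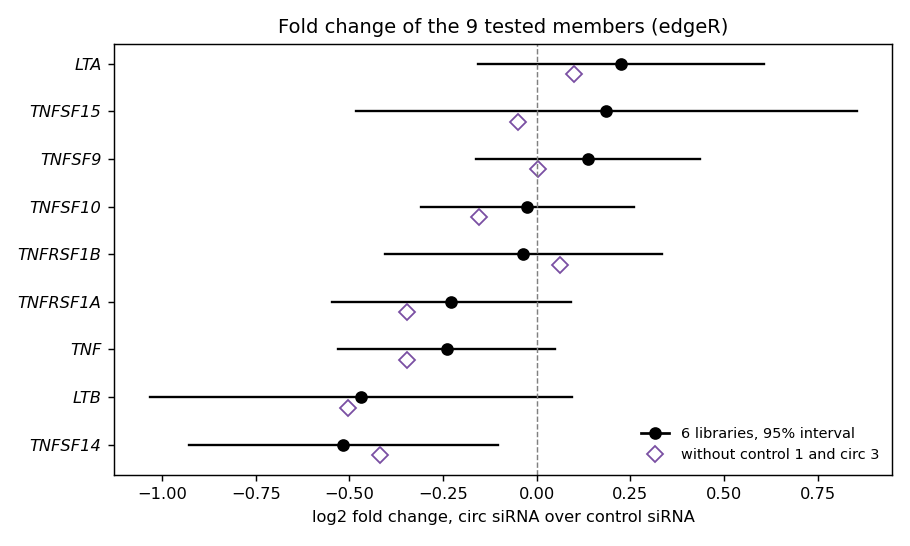
Log2 fold change, circ siRNA over control siRNA, of the 9 tested members with its 95% interval from edgeR over 6 libraries (black), and the value without control library 1 and circ library 3 (open diamonds). The interval of TNFSF14, -0.93 to -0.10, is the one that leaves out 0, and TNFSF15 and TNFRSF1B change sign when the 2 libraries are left out.

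Neither receptor of TNF passed the threshold over the 6 libraries. TNFRSF1A (chr12:6328757-6342114, minus strand) had 53.6, 54.5 and 54.2 CPM in circ libraries and 52.4, 71.1 and 66.7 CPM in control libraries. Control library 1 lay below all circ libraries and the other 2 control libraries above them, so the groups overlapped. Its log2 fold change was -0.23 (95% interval -0.55 to 0.09; edgeR adjusted p = 0.864), and -0.35 without control library 1 and circ library 3 (edgeR adjusted p = 0.016). For TNFRSF1A it was -0.35 without control library 1 alone and -0.14 without control library 2 alone. That fit of 4 libraries called 3 members lower, TNF, LTB and TNFRSF1A, and 0 higher, where 7.43% of all genes were called lower and 7.38% higher. TNFRSF1B (chr1:12166991-12209228, plus strand) had 599, 587 and 421 CPM in circ libraries and 509, 549 and 590 CPM in control libraries. Circ library 3 was the lowest of the 6 and circ libraries 1 and 2 were near control library 3. The log2 fold change was -0.04 (95% interval -0.41 to 0.33; edgeR adjusted p = 0.967), and 0.06 without both libraries that stand apart.

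Ratios within a library do not depend on how libraries are scaled to each other. TNFRSF1B exceeded TNFRSF1A by 11.9, 11.4 and 8.22 times in FPKM in circ libraries and by 10.3, 8.19 and 9.38 times in control libraries. The groups overlapped, with circ library 3 level with control library 2. The log2 ratio averaged 3.37 ± 0.29 in circ libraries and 3.21 ± 0.17 in control libraries (SD, n = 3 each; difference 0.16, exact permutation test, two-sided, p = 0.4). TNF made up 92.3%, 92.2% and 92.4% of the summed FPKM of the 8 ligand members in circ libraries, and 93.9%, 93.5% and 93.5% in control libraries. The share was lower in each circ library than in each control library, also in those that stand apart, with a mean difference of -1.34 percentage points (exact permutation test, two-sided, p = 0.1, the smallest that 3 against 3 libraries allow). TNF is in the sum with TNFSF9 and TNFSF10, which hold most of the rest.

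**Figure D3:**
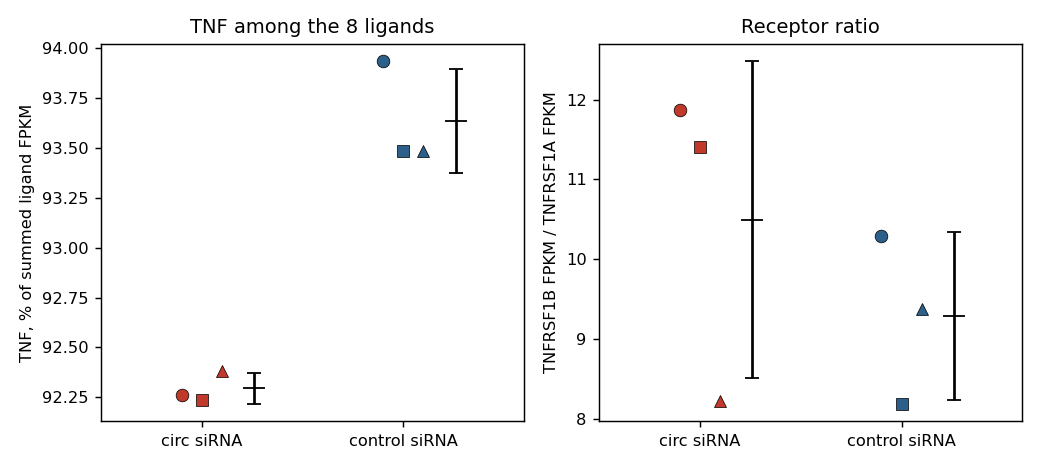
Percent of the summed FPKM of the 8 ligand members that TNF takes (left) and ratio of TNFRSF1B to TNFRSF1A FPKM (right) in each library, with mean ± SD of 3 libraries; the axes do not start at 0. The TNF share is 92.2% to 92.4% in circ libraries and 93.5% to 93.9% in control libraries, and the receptor ratios overlap.

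The members also differed in how they moved across the 6 libraries. Pearson correlations of log2 CPM over the 6 libraries, which share groups and composition, are given as a description. They do not separate the difference between groups from movement within a group. LTA and TNFSF9 were the most alike (r = 0.954), then LTB and TNFRSF1A (r = 0.855) and TNF and TNFRSF1A (r = 0.779). TNFSF15 and TNFRSF1B were the most opposed (r = -0.975), with TNFSF15 high and TNFRSF1B low in circ library 3. TNF and LTA, which are neighbours, had r = -0.278, and TNF and LTB r = 0.494. Among 9463 genes with a mean of at least 5 CPM, the pattern most like that of TNF was found for ZNF764 (r = 0.984), BZW2 (r = 0.983), HOMER2 (r = 0.982), OSGEP (r = 0.980) and PC (r = 0.980), over the same 6 libraries. Their selection by likeness to TNF fixes the order of their groups. Their log2 fold changes ran from -0.38 for HOMER2 to -0.14 for PC over 6 libraries, where edgeR called 0 of 5 (adjusted p from 0.724 to 0.885). Without the libraries that stand apart it called ZNF764 (adjusted p = 0.040), BZW2 (adjusted p = 0.0055) and OSGEP (adjusted p = 0.027). That fit called 14.8% of all genes and also TNF, so the selection by likeness to TNF bears on these calls too. They are given as a description only.

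**Figure D4:**
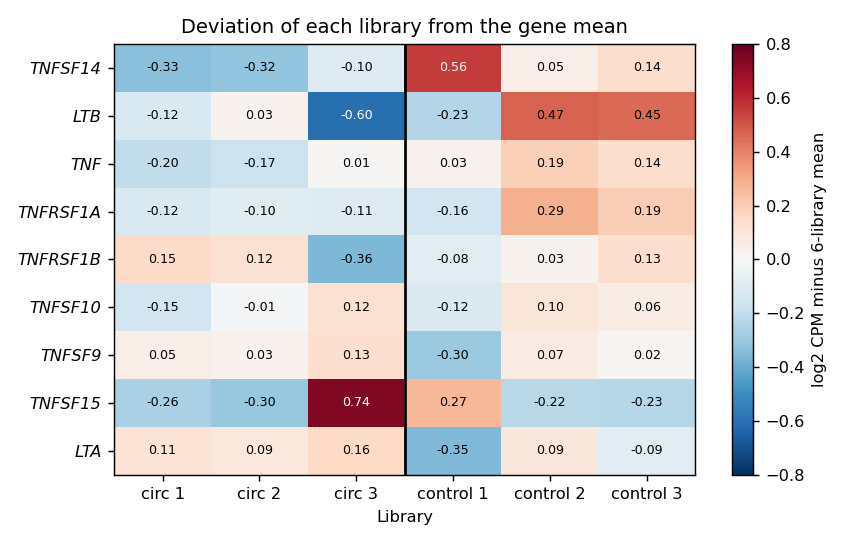
Log2 CPM of each tested member in each library minus its mean over the 6 libraries, with circ libraries left of the line and control libraries right of it. TNFSF15 reaches 0.74 and LTB -0.60 in circ library 3, and TNFSF14 reaches 0.56 in control library 1, while TNF stays between -0.20 and 0.19.

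The receptors of the other ligands were present for some ligands and at the floor for others, and none was called by edgeR. LTBR had 49.4 ± 9.30 CPM in circ libraries and 50.3 ± 4.58 CPM in control libraries, and TNFRSF14 had 68.1 ± 11.6 CPM in circ and 73.7 ± 14.5 CPM in control libraries, with log2 fold changes of -0.03 and -0.11. The TRAIL death receptors TNFRSF10A (8.12 ± 0.48 CPM in circ and 9.52 ± 1.56 CPM in control libraries) and TNFRSF10B (40.9 ± 11.02 CPM in circ and 47.8 ± 5.30 CPM in control libraries) both had a log2 fold change of -0.23, and the decoy receptor TNFRSF10D (16.3 ± 6.04 CPM in circ and 13.0 ± 0.83 CPM in control libraries) one of 0.32 (0.0018 without the libraries that stand apart). TNFRSF10B had a log2 fold change of -0.37 without the libraries that stand apart (edgeR adjusted p = 0.019). TNFRSF9, the receptor of TNFSF9, had 27.4, 25.7 and 90.9 CPM in circ libraries and 35.9, 29.4 and 29.9 CPM in control libraries. Circ library 3 was the high one. Its log2 fold change was 0.60 (95% interval -0.44 to 1.63) over 6 libraries and -0.26 without that library. TNFRSF11B, a soluble decoy receptor, had 0.79 ± 0.30 CPM in circ and 0.72 ± 0.29 CPM in control libraries. TNFRSF10C and TNFRSF25 had at most 3 counts in any library, TNFRSF8 had 2 to 6 counts, and TNFRSF6B had 0 counts in all 6. A count of 0 allows up to 3 counts. Exon bases shared with other genes were counted for the members, CD68 and LYZ, but not for these receptors. A low count here is therefore not shown to mean low expression. Of the 11 receptors, 7 were tested, with 3 positive and 4 negative values and a median log2 fold change of -0.03.

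The wider TNF pathway held 0 genes called by edgeR in any of the 5 other lists. Among other TNF superfamily ligands, 6 of 10 were tested, with 4 positive and 2 negative values and a median log2 fold change of 0.22, against 1 positive and 5 negative values and a median of -0.11 without the libraries that stand apart. Those with the smallest p were TNFSF18 (log2 fold change 0.38), TNFSF11 (RANK ligand, 0.34) and TNFSF13B (BAFF, 0.19), each with overlapping groups. Among other receptors of the family, 8 of 16 were tested and all 8 had positive values (median 0.16), also with the length offset, while 5 of 8 were positive without the libraries that stand apart. Values near 0 were among the 8, with 0.012 for CD40, 0.020 for TNFRSF12A and 0.048 for RELT. Over all genes tested, 6090 of 12469 were positive. TNFRSF21 (DR6) had 45.7, 42.3 and 57.7 CPM in circ libraries and 37.0, 28.6 and 34.98 CPM in control libraries. Its groups did not overlap, and its log2 fold change was 0.53 (95% interval 0.16 to 0.91; edgeR adjusted p = 0.581). It was 0.47 with a call without the libraries that stand apart (edgeR adjusted p = 0.014), where 14.8% of all genes were called. In this list groups did not overlap for 2 genes higher, TNFRSF21 and TNFRSF11A, and 0 lower (6.64% and 5.87% of all genes). Both were named for their small p, which favours groups that do not overlap. TNFRSF11A (RANK) and FAS, a death receptor, had log2 fold changes of 0.41 and 0.88 at 4.75 ± 0.60 and 2.09 ± 1.14 CPM in circ libraries, against 3.58 ± 0.49 and 1.12 ± 0.53 CPM in control libraries. FAS had 1.33, 1.53 and 3.40 CPM in circ libraries and 1.15, 1.64 and 0.583 CPM in control libraries. Its groups overlapped, and its log2 fold change was 0.35 without circ library 3 and 0.37 without both libraries that stand apart.

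Receptor-proximal signalling genes had 18 positive and 7 negative values among 25 tested of 27 (median 0.11), with groups not overlapping for 3 higher and 1 lower gene (6.64% and 5.87% of all genes). The genes named here were chosen by smallest p, which favours groups that do not overlap. BIRC3 (cIAP2), a ubiquitin ligase of the TNF receptor complex and itself an NF-kB target, had 316, 292 and 358 CPM in circ libraries and 636, 435 and 441 CPM in control libraries. It was lower in each circ library, at -0.65 on the log2 scale (95% interval -1.05 to -0.24), which did not pass in edgeR (adjusted p = 0.499) or DESeq2 (adjusted p = 0.104). TNFAIP3 (A20), which ends NF-kB signalling, had 1065 ± 187 CPM in circ libraries and 782 ± 175 CPM in control libraries, with overlapping groups and 0.44 as log2 fold change. MAP3K7 (TAK1), the kinase that activates the IKK complex, had a log2 fold change of 0.26. In the fit without control library 1 and circ library 3, BIRC3, TNFAIP3 and MAP3K7 passed (edgeR adjusted p = 0.000816, 0.005 and 0.033), among 4 genes of the list called higher and 2 called lower in a fit that called 14.8% of all genes.

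Genes that act on TNF mRNA or on release of the protein were all tested (22 of 22), with 14 positive and 8 negative values and a median of 0.06. Groups did not overlap for 3 genes higher (ZFP36, MAP3K8, FRMD8) and 3 lower (TIMP3, HNRNPD, KHSRP), against 6.64% and 5.87% of all genes. ZFP36, MAP3K8 and TIMP3 were chosen by smallest p, which favours groups that do not overlap. FRMD8, HNRNPD and KHSRP (log2 fold changes 0.23, -0.08 and -0.08) were named after their values were seen. ZFP36 (tristetraprolin), which binds the AU-rich element of TNF mRNA and promotes its decay, had 202, 187 and 212 CPM in circ libraries and 151, 143 and 157 CPM in control libraries. Every circ library was above every control library, and the log2 fold change was 0.41 (95% interval 0.16 to 0.67; edgeR adjusted p = 0.499, DESeq2 adjusted p = 0.135). MAP3K8 (TPL2), a kinase needed for TNF production after LPS in mice, had a log2 fold change of 0.39 (edgeR adjusted p = 0.659) and likewise did not overlap. TIMP3, an inhibitor of ADAM17, had 299, 320 and 422 CPM in circ libraries and 541, 554 and 510 CPM in control libraries. Its log2 fold change was -0.62 (95% interval -0.98 to -0.27; edgeR adjusted p = 0.443), and DESeq2 called it lower (adjusted p = 0.0465), the 1 gene of all 7 lists that DESeq2 called. Over all genes DESeq2 called 0.671%. Without the libraries that stand apart edgeR called TIMP3 at -0.78 (adjusted p = 8.3e-05), ZFP36 at 0.38 (adjusted p = 0.0083) and MAP3K8 at 0.30 (adjusted p = 0.019), among 5 genes of the list called higher and 1 called lower. The same fit called 7.38% of all genes higher and 7.43% lower. ADAM17 itself had a log2 fold change of 0.13 and overlapping groups, against 0.42 without the libraries that stand apart (edgeR adjusted p = 0.036). It falls outside the rule for named genes and was chosen after its values were seen.

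NF-kB target genes induced by TNF, which LPS also induces directly, had 13 positive and 12 negative values among 25 tested (median 0.02). With the length offset 18 were positive and 7 negative (median 0.05), and without the libraries that stand apart 11 were positive and 14 negative (median -0.03). For the 3 with the smallest p, each circ library lay above each control library in CPM, though for TNIP3 and NFKB1 not in FPKM. Their choice by smallest p favours groups that do not overlap. Over the whole list, groups did not overlap for 5 genes higher and 1 lower (6.64% and 5.87% of all genes). The lower one was IL1B, with means of 14132 CPM in circ and 15825 CPM in control libraries (log2 fold change -0.16), named after its values were seen. TNIP3 had 99.1 ± 11.1 CPM in circ libraries and 69.9 ± 11.7 CPM in control libraries, and NFKB1 had 596 ± 86.7 CPM in circ and 465 ± 44.6 CPM in control libraries, with log2 fold changes of 0.50 and 0.36 (edgeR adjusted p = 0.581 and 0.728). IL6 had 191, 215 and 157 CPM in circ libraries and 92.3, 143 and 139 CPM in control libraries, with the lowest circ library above the highest control library. Its log2 fold change over 6 libraries was 0.59 (edgeR adjusted p = 0.602). Without control library 1 and circ library 3, edgeR called 5 genes of the list higher and 2 lower, in the fit that called 14.8% of all genes. Among those called higher were TNIP3 (adjusted p = 0.0012), NFKB1 (adjusted p = 0.016) and IL6 (adjusted p = 0.0011). The 2 called lower were IER3 (log2 fold change -0.23, adjusted p = 0.041) and VCAM1 (log2 fold change -0.92, adjusted p = 0.041), named after their values were seen.

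**Figure D5:**
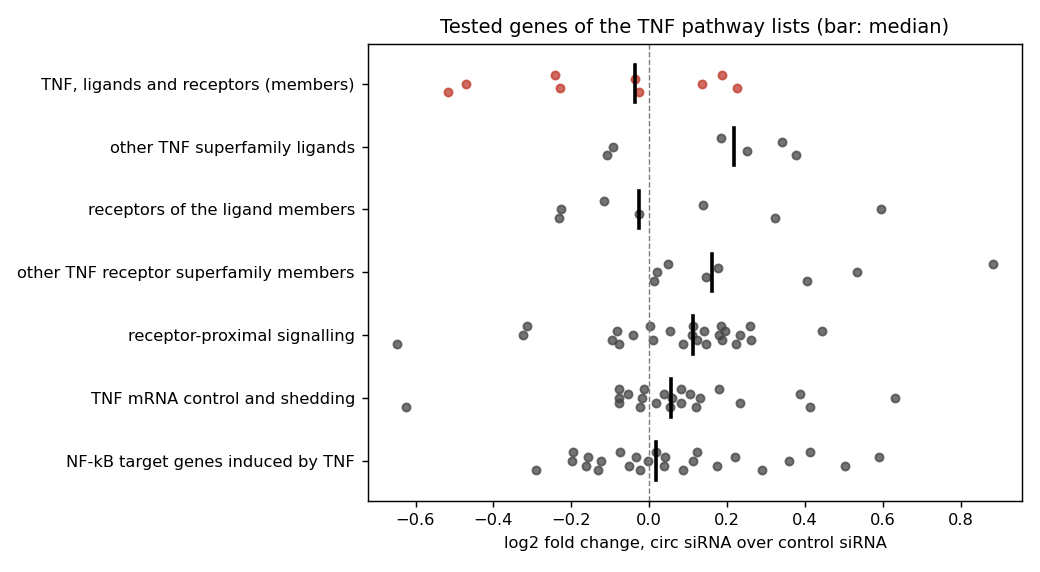
Log2 fold change, circ siRNA over control siRNA, of each tested gene in the member list (red) and in 6 other lists of the TNF pathway (grey), with a bar at each median. Medians lie between -0.04 for the members and 0.22 for other TNF superfamily ligands, and 0 of these genes passed the threshold in edgeR over all 6 libraries.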

How the data were processed

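Poly-A RNA of 3 circ siRNA and 3 control siRNA libraries was sequenced as read pairs (per the labels' protocols). The submitters' processing notes name CASAVA, cutadapt, HISAT2 and the GRCh38 build. Not given in the sources used here: counter, strand setting and annotation. As deposited, the table holds read counts per gene, not normalised, and FPKM, which equal the deposited count divided by the listed gene length and by the total of the same table. In GENCODE 29, 9 members share no exon base with another gene and TNFRSF1B shares 36 with a microRNA.

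Counts were tested with edgeR 4.0.16 in R 4.3.3 (quasi-likelihood F test, two-sided, TMM, filterByExpr with a minimum count of 10, group as the only term), with Benjamini-Hochberg adjustment over 12469 genes and a threshold of 0.05. SEs come from the F statistic. DESeq2 1.42.0 and limma-voom (limma 3.58.1) were alternatives, as were other scalings, filters and thresholds, a replicate block, a gene length offset (natural spline, 4 degrees of freedom) and left-out libraries. Correlations used log2 CPM with a prior count of 2. Ratios were tested by exact permutation (scipy 1.17.1). The tests were tried on simulated counts.

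Named genes were all members, all receptors of the ligand members, up to 3 tested genes of each other list with the smallest p, and the 5 genes most like TNF. The members, lists and alternatives were chosen with earlier results of these data known. Replicates of a group differed by more than sampling noise in every pair (chi-square per gene of at least 5.92). The value was 5.92 for control libraries 2 and 3 and 6.53 for circ libraries 1 and 2. It was 39.6 to 72.4 for the pairs with control library 1 or circ library 3.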

Additional observations from a re-analysis of the deposited data

How the results depend on the processing

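Of 144 values of the 9 tested members under alternatives, 131 had the same sign and call, 10 changed sign and 3 passed the threshold, all 3 without both control library 1 and circ library 3. Members called lower numbered 0 in edgeR and 3 without both of these libraries. Over all genes, edgeR called 0 higher, against 60 with DESeq2, 1 with the length offset, 3 at an adjusted p under 0.10 and 919 without both libraries; it called 1 lower, against 22 with DESeq2, 5 with the length offset, 2 without the filter, 4 at an adjusted p under 0.10 and 926 without both libraries. It called 0 lower with library totals alone, limma-voom, the replicate block, the length offset with the replicate block, and each library left out in turn (0 to 0). The fit without both leaves 2 libraries in each group, chosen by their scores and not by the labels. This choice narrows the spread within groups, so the p-values of that fit do not measure the spread between replicates. TNFSF10 (log2 fold change -0.03) was 0.0054 with library totals alone, 0.013 with the length offset and 0.0064 with the length offset and replicate block. Without both libraries the value was -0.051 for TNFSF15, 0.062 for TNFRSF1B, 0.054 for LTBR, -0.46 for TNFRSF11B, -0.16 for TNFRSF9, -0.078 for TNFSF18 and -0.17 for TNFSF13B, each with the opposite sign to that of all 6. With 1 library left out at a time, values ran from -0.096 to 0.041 for TNFSF10, -0.24 to 0.37 for TNFSF15, -0.12 to 0.11 for TNFRSF1B, -0.11 to 0.12 for LTBR, -0.27 to 0.020 for TNFRSF14, -0.015 to 0.52 for TNFRSF10D, -0.16 to 0.41 for TNFRSF11B, -0.26 to 0.90 for TNFRSF9 and -0.13 to 0.33 for TNFSF13B. They ran from 0.12 to 0.33 for LTA, -0.67 to -0.31 for LTB, 0.033 to 0.21 for TNFSF9, -0.61 to -0.34 for TNFSF14, -0.35 to -0.14 for TNFRSF1A and 0.35 to 1.24 for FAS. For TNF they ran from -0.31 to -0.20 (edgeR adjusted p from 0.242 to 1.00). The cause of these changes was not tested.

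Same-numbered libraries had deviations correlated at -0.17, 0.46 and -0.37, and 2 of 6 libraries were closest to their own number, so the numbers were not taken as pairs. With the replicate block TNF had a log2 fold change of -0.24 and TNFSF14 one of -0.50 (edgeR adjusted p = 0.948 each), and 0 members were called. The sign-flip test of same-numbered differences gave p = 0.25, the smallest that 3 exact sign flips allow, for the TNF share and p = 0.5 for the receptor ratio. The difference in the TNF share was -1.42 to -1.19 percentage points with 1 library left out, -1.23 without both and -1.82 in CPM in place of FPKM. The log2 receptor ratio differed by 0.067 to 0.33 with 1 library left out and by 0.41 without both. Depth limits TNFSF8, which at no more than 14 counts a library could not be tested.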
